A study of Homo sapiens with 6 samples.

Results

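The genes of the mitochondrial and caspase machinery of cell death were followed in 2 human breast cell models before and after inhibition of DNA methylation. They were chosen by symbol, for what their products do, and comprised 39 genes of the 23617 symbols listed for MDA-MB-231: 6 anti-apoptotic BCL2 proteins, 3 pore-forming effectors, 8 BH3-only proteins, 5 other BCL2 relatives and BNIP3 proteins, 5 inhibitor of apoptosis proteins (IAPs), 9 caspases and 3 regulators of caspases. All 39 symbols were found, with 141 RefSeq transcripts, and 9 of them had a single transcript.

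RNA was sequenced from 6 libraries. In MDA-MB-231, an established mesenchymal breast cancer line, 1 library came from untreated cells and 1 from cells given 5-aza-2'-deoxycytidine (DAC, decitabine) at 10 µM every day and collected at 72 h. In HMLER, human mammary epithelial cells transformed in culture with defined oncogenes, 2 libraries were untreated and 2 received the same dose of DAC for the same time. DAC is a cytidine analogue that is built into DNA, where it traps DNA methyltransferases, so that methylation is lost as cells divide. According to the study p53 is mutated in MDA-MB-231 and blocked in HMLER, and each library was made from pooled RNA extractions.

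BCL2 proteins decide whether the outer mitochondrial membrane is opened. The effectors BAX, BAK1 and BOK form pores in it, and the anti-apoptotic members bind and restrain BAX and BAK1. The BH3-only proteins respond to stress by activating effectors or by occupying the anti-apoptotic members. Cytochrome c that leaks out assembles APAF1 and caspase-9 into the apoptosome, DIABLO leaks out with it and displaces IAPs from caspases, and death receptors start the caspase cascade through caspase-8 and caspase-10.

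DAC lowers DNA methylation, which in mammals lies mainly at the cytosine of CG dinucleotides. The 250 bases before the start of 4 members are therefore shown as RefSeq gives them, with each CG in capitals. They are from assembly GRCh38.p14, 5' to 3' on the strand of the gene. BIRC3 (chr11:102317234-102317483, plus strand) was higher after DAC in both lines and PMAIP1 (chr18:59899746-59899995, plus strand) was listed as higher in HMLER, while BMF (chr15:40108880-40109129, minus strand) and CASP5 (chr11:105023169-105023418, minus strand) stayed under 1 FPKM in MDA-MB-231 and stand for low members with many and with no CG.
BIRC3: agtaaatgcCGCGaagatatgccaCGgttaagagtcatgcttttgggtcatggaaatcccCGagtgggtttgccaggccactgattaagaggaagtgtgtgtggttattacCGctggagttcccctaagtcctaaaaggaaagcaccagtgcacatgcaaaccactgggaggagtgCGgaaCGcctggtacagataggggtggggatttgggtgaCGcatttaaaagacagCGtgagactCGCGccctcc
PMAIP1: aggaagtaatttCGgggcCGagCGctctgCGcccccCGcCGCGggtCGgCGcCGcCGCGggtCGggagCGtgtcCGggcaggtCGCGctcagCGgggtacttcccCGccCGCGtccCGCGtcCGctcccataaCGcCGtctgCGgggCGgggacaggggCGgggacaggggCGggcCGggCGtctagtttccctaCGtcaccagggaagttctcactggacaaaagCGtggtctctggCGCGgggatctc
BMF: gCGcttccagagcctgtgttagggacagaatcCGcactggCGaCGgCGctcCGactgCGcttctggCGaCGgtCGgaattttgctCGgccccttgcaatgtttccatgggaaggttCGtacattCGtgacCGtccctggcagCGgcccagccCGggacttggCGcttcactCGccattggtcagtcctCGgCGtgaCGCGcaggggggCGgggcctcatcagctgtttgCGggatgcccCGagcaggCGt
CASP5: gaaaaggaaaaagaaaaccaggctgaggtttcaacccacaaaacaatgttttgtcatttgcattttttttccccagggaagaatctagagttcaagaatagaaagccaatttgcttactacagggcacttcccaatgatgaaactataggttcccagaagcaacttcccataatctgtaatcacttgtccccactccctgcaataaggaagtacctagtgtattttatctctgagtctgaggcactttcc
These stretches held 11 CG in BIRC3, 36 in PMAIP1, 26 in BMF and 0 in CASP5. Methylation of these stretches was not analysed here.

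Levels are given as FPKM, fragments per kilobase and per unit of library size, summed over the transcripts of a symbol unless a transcript is named. With 1 library per condition in MDA-MB-231, no difference could be checked against replicates, and p-values are not given. A gene was called higher or lower when its DAC to untreated ratio was above 2 or below 0.5 and it reached 1 FPKM in at least 1 of the libraries. FPKM totals were 589238 in the untreated and 480455 in the DAC library, a ratio of 0.815, and the 11292 symbols that reached 1 FPKM in each library had a median ratio of 0.912 (log2 of -0.13). Ratios of subfamily sums are therefore also given after division by either figure. For single genes, ratios between 0.815 and 1 turn above 1 after division by the ratio of totals, and no direction is drawn from them. Of the markers of MDA-MB-231, VIM (3066 and 1134 FPKM), AXL, CD44 and FN1 were well expressed in both libraries, and of the markers known to be low in this line CDH1, ESR1 and PGR were listed at 0 in untreated cells, whereas EPCAM was at 7.90 and 9.78 FPKM and ERBB3 at 0.496 and 3.43 FPKM. The 5 blood cell markers stayed under 1 FPKM in both libraries. VIM and AXL were called lower and FN1 and ERBB3 higher after DAC, and the part of this shift in the results was not tested. In bulk RNA, fewer cells that express a gene and less RNA per cell cannot be told apart.

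In MDA-MB-231, 30 of the 39 genes reached 1 FPKM in at least 1 library. Of these, 2 were higher after DAC (6.67%), the BH3-only gene BIK and the IAP gene BIRC3, where 10.8% of all symbols passed the same rule. None was called lower, where 4.82% of all symbols were. The other 28 lay within 2-fold. The DAC value was below the untreated value for 18 of 30 (60.0%), close to the 56.9% of all symbols, and the median log2 change (pseudocount of 1 FPKM) was -0.15 for the 30 genes and -0.08 for all symbols at 1 FPKM or more. Divided by the ratio of totals, the median of the 30 genes turned to 0.14. BIK reached 1 FPKM through the DAC library alone. It was no longer called when 1 FPKM was required in both libraries, nor BIRC3 at a minimum of 5 FPKM.

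**Figure D1:**
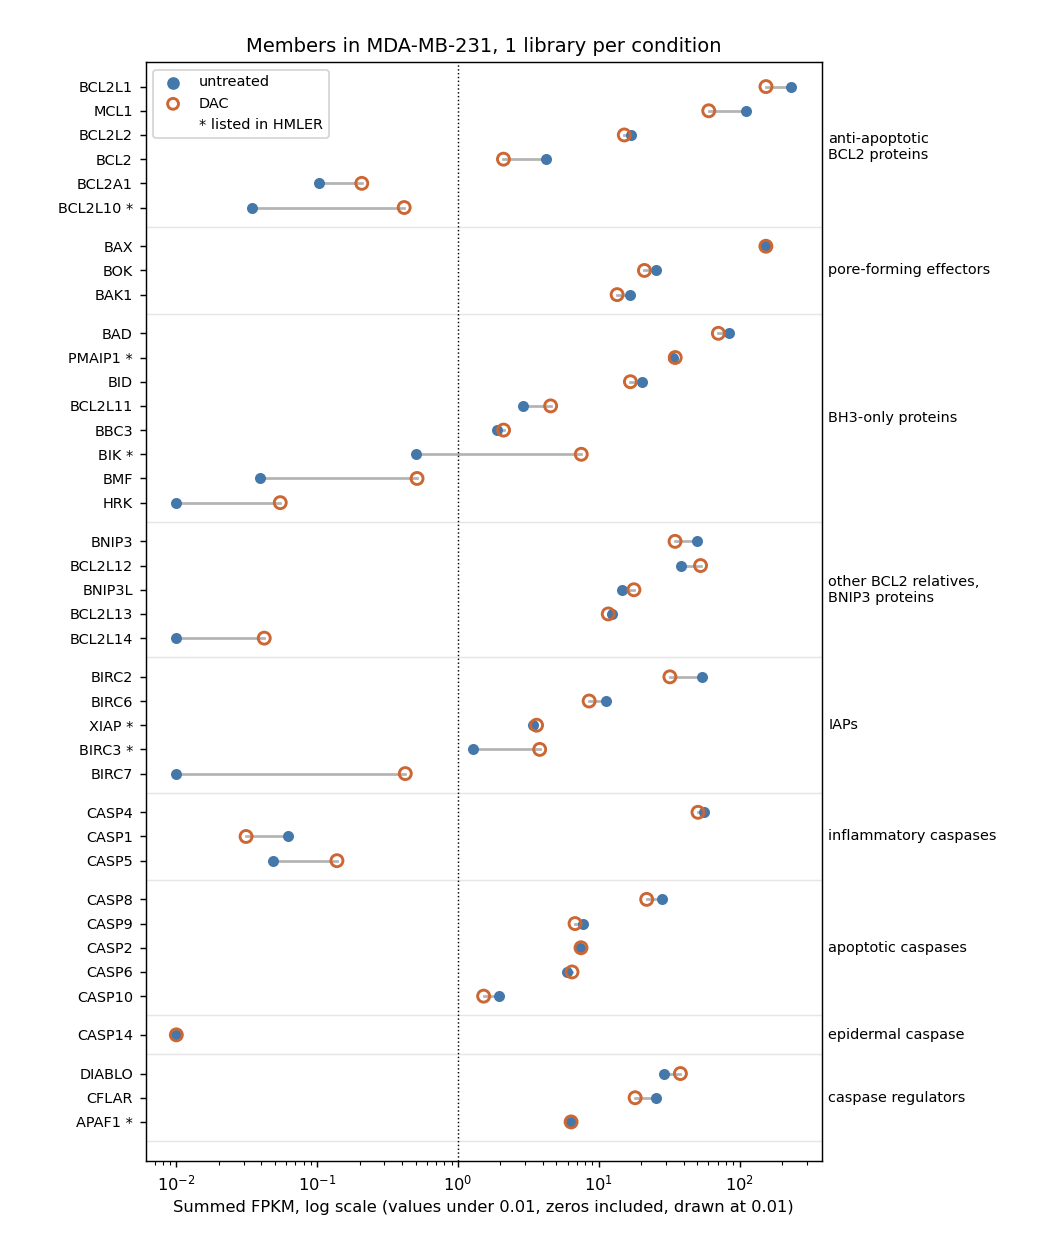
Summed FPKM on a log scale (x axis) of each of the 39 genes in the untreated (filled) and DAC (open) MDA-MB-231 libraries, ordered by subfamily, with the dotted line at 1 FPKM, values under 0.01 drawn at 0.01, and a star on genes listed for HMLER. BIK moved from 0.501 to 7.50 FPKM and BIRC3 from 1.29 to 3.80 FPKM, while most other genes above the line shifted little.

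The anti-apoptotic proteins had the lowest median ratio of the subfamilies with at least 3 genes at 1 FPKM, 0.603 over 4 genes. BCL2L1 (chr20:30252255-30311792, minus strand, hg19), which encodes Bcl-xL, was the most abundant, at 230.9 FPKM without and 153.7 FPKM with DAC, a ratio of 0.666. Its long transcript NM_138578, the Bcl-xL form, was at 222.6 FPKM (Cuffdiff bounds 102.7 to 342.5) and 146.2 FPKM (bounds 72.3 to 220.1), and it made up 96.4% and 95.1% of the gene. The short form NM_001191, Bcl-xS, which opposes Bcl-xL, was at 8.24 and 7.47 FPKM. The estimated shares of both forms were therefore nearly the same in the libraries, and the bounds of the long form overlapped. Those of the short form were 0 to 32.3 without and 0 to 24.8 with DAC, so the balance of both forms is poorly determined.

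MCL1 (chr1:150533371-150552214, minus strand, hg19), a short-lived guardian of the mitochondrion, was at 111.7 FPKM without and 60.3 FPKM with DAC, a ratio of 0.540. The bounds of its full-length transcript NM_021960 were 54.4 to 166.7 and 32.4 to 88.3, and overlapped. The short transcript NM_182763, whose product promotes death, was at 1.11 FPKM and then listed at 0. BCL2 itself (chr18:60790579-60987361, minus strand, hg19) was far less abundant, at 4.19 and 2.10 FPKM, and with a ratio of 0.501 it lay just inside the 2-fold limit. BCL2L2, which encodes Bcl-w, was at 16.9 and 15.2 FPKM. It overlaps a read-through gene with PABPN1, so its reads may be shared with it.

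Summed over the subfamily, anti-apoptotic RNA was at 363.8 FPKM without and 231.9 FPKM with DAC, a ratio of 0.637 that became 0.699 after division by the median ratio and 0.782 after division by the ratio of totals. BCL2L1 and MCL1 gave 63.5% and 30.7% of the untreated sum. All 4 genes at 1 FPKM had ratios below 1, beside 56.9% of all symbols at 1 FPKM in at least 1 library. All 4 were also below 0.912, the median ratio of symbols at 1 FPKM in each library, as were 5868 of all 12525 symbols. BCL2L2 was close to that median at 0.896. Against the ratio of totals 3 of 4 were lower, since BCL2L2 turned to 1.10. The remaining members, BCL2A1 (0.103 and 0.207 FPKM) and BCL2L10 (0.0343 and 0.415 FPKM), stayed under 1 FPKM in both libraries.

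The pore-forming effectors were present in quantity and near equal in the libraries. BAX was at 150.4 FPKM without and 153.4 FPKM with DAC, a ratio of 1.02, and gave 78.2% of the untreated subfamily sum. Its alpha transcript NM_138761 was at 82.8 and 92.3 FPKM and its beta transcript NM_004324 at 64.3 and 56.9 FPKM. BOK was at 25.3 and 21.1 FPKM, and BAK1 at 16.6 and 13.5 FPKM. The effector sum had a ratio of 0.978, which turned to 1.07 against the median ratio and 1.20 against the ratio of totals, so no direction can be given for it.

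Among the BH3-only genes that reached 1 FPKM, 1 was called. BIK (chr22:43506756-43525718, plus strand, hg19), which encodes an activator of death seated at the endoplasmic reticulum, was at 0.501 FPKM without DAC (bounds 0 to 1.41) and at 7.50 FPKM with it (bounds 0.223 to 14.8), 14.97 times as high. From the step that 1 fragment gives in low values, these levels stand for about 15 and 229 fragments. The Cuffdiff bounds nevertheless overlapped. BAD, which binds Bcl-xL when it is dephosphorylated, was the most abundant member at 83.6 and 70.6 FPKM and gave 58.5% of the untreated subfamily sum. Its ratio of 0.844 was below the median ratio, and against the ratio of totals it turned to 1.04.

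PMAIP1, which encodes the MCL1 antagonist Noxa, was at 33.7 and 34.9 FPKM in MDA-MB-231, and BID, which carries the caspase-8 signal to mitochondria, at 20.3 and 16.8 FPKM. BCL2L11, which encodes Bim, was at 2.91 and 4.55 FPKM, and BBC3, which encodes Puma, at 1.88 and 2.11 FPKM. BMF (0.0392 and 0.512 FPKM) and HRK (listed at 0 and at 0.0547 FPKM) stayed under 1 FPKM. The subfamily sum was near equal, at 142.9 and 136.9 FPKM, with a ratio of 0.958 that turned to 1.05 against the median ratio and 1.18 against the ratio of totals.

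The other BCL2 relatives that reached 1 FPKM lay within 2-fold. BCL2L12 was at 38.4 and 52.7 FPKM, a ratio of 1.37, and overlaps IRF3, which was also expressed. The mitophagy receptors BNIP3 and BNIP3L were at 49.6 and 34.8 FPKM and at 14.6 and 17.7 FPKM. BCL2L13 was at 12.5 and 11.7 FPKM, and BCL2L14 was listed at 0 and at 0.0421 FPKM.

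**Figure D2:**
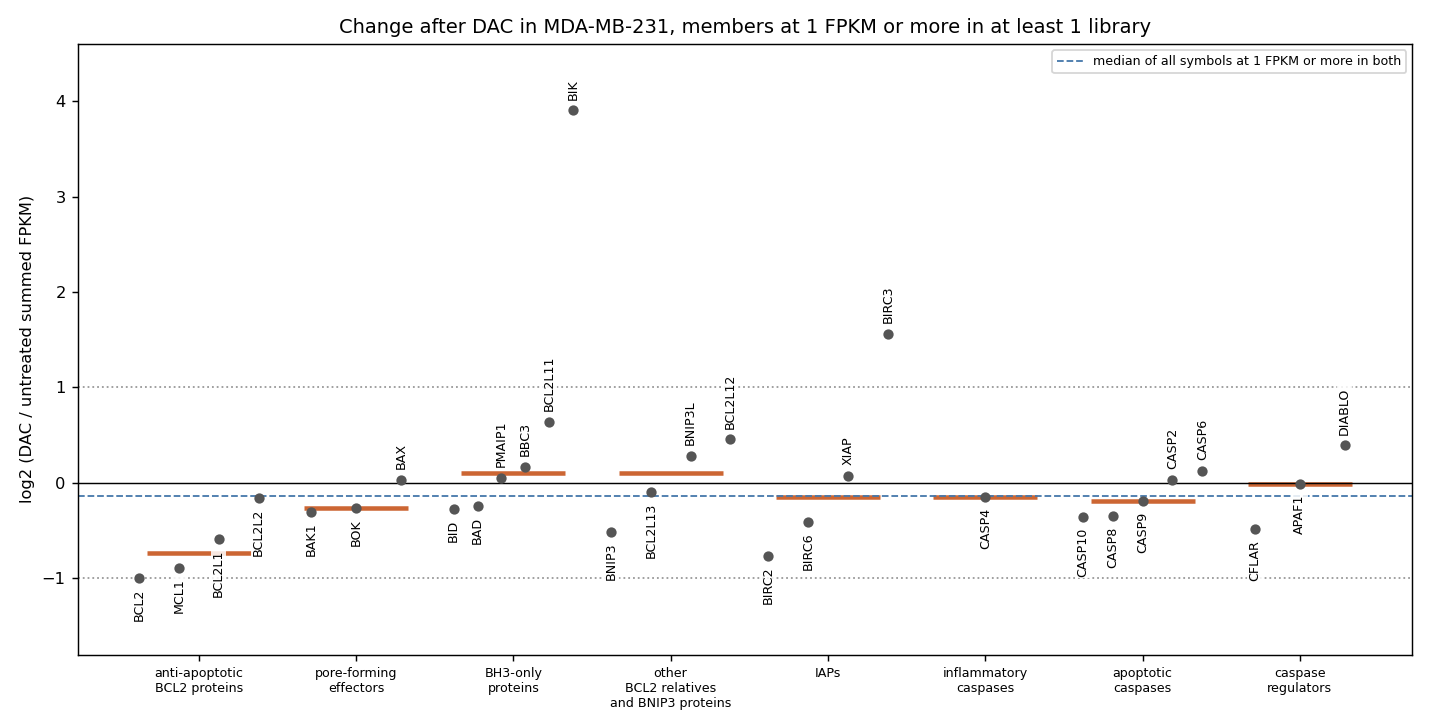
Log2 of the DAC to untreated ratio of summed FPKM (y axis) for the 30 genes that reached 1 FPKM in either MDA-MB-231 library, by subfamily (x axis). Orange bars mark subfamily medians and dotted lines 2-fold. The dashed line is the median of all symbols that reached 1 FPKM in both libraries. BIK and BIRC3 lie above the upper line, and the anti-apoptotic genes BCL2, MCL1 and BCL2L1 lie lowest in their group, down to a ratio of 0.501.

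The IAPs went both ways. BIRC2 and BIRC3 encode the closely related ubiquitin ligases cIAP1 and cIAP2 and lie side by side on chromosome 11. BIRC3 (chr11:102188215-102210134, plus strand, hg19) was at 1.29 FPKM without and 3.80 FPKM with DAC, 2.95 times as high. Its main transcript NM_001165 was at 1.29 FPKM (bounds 0.231 to 2.34) and 3.58 FPKM (bounds 1.51 to 5.64), with overlapping bounds. BIRC2 (chr11:102217942-102249401, plus strand, hg19), the more abundant neighbour, was at 54.2 and 31.9 FPKM, a ratio of 0.590, and gave 77.2% of the untreated subfamily sum. How reads shared between these similar genes were assigned is not given in the sources used here.

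XIAP, a direct inhibitor of caspases, was at 3.43 and 3.61 FPKM, a ratio of 1.05. BIRC6, a giant ubiquitin ligase, was at 11.3 and 8.53 FPKM, and BIRC7 was listed at 0 and at 0.422 FPKM. The IAP sum followed BIRC2, at 70.2 and 48.3 FPKM, a ratio of 0.688 that became 0.754 against the median ratio and 0.844 against the ratio of totals.

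The caspases that reached 1 FPKM lay within 2-fold. CASP8, the initiator at death receptors, was the most abundant apoptotic caspase among the members, at 27.9 and 21.9 FPKM. CASP9, the initiator of the apoptosome, was at 7.74 and 6.77 FPKM, and CASP2, CASP6 and CASP10 lay between 1.52 and 7.47 FPKM. CASP4, the cytosolic sensor of lipopolysaccharide, was at 56.0 and 50.6 FPKM. The other inflammatory caspases CASP1 (0.0621 and 0.0313 FPKM) and CASP5 (0.0488 and 0.138 FPKM) stayed under 1 FPKM. CASP14, a caspase of the epidermis, was listed at 0 in both libraries.

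The regulators that set the threshold of the caspases did not pass the rule either. DIABLO was at 28.9 and 37.9 FPKM, a ratio of 1.31, APAF1 at 6.39 and 6.35 FPKM, a ratio of 0.994, and CFLAR, which encodes the caspase-8 inhibitor c-FLIP, at 25.3 and 18.1 FPKM, a ratio of 0.715.

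The bounds that Cuffdiff gives each value were set beside these ratios for the largest transcript of each gene. In none of the 29 genes whose largest transcript reached 1 FPKM did the bounds of the libraries separate, where they did for 1.44% of all symbols. At that share less than 1 gene in 29 would separate, so the count says little of these genes as a group.

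**Figure D3:**
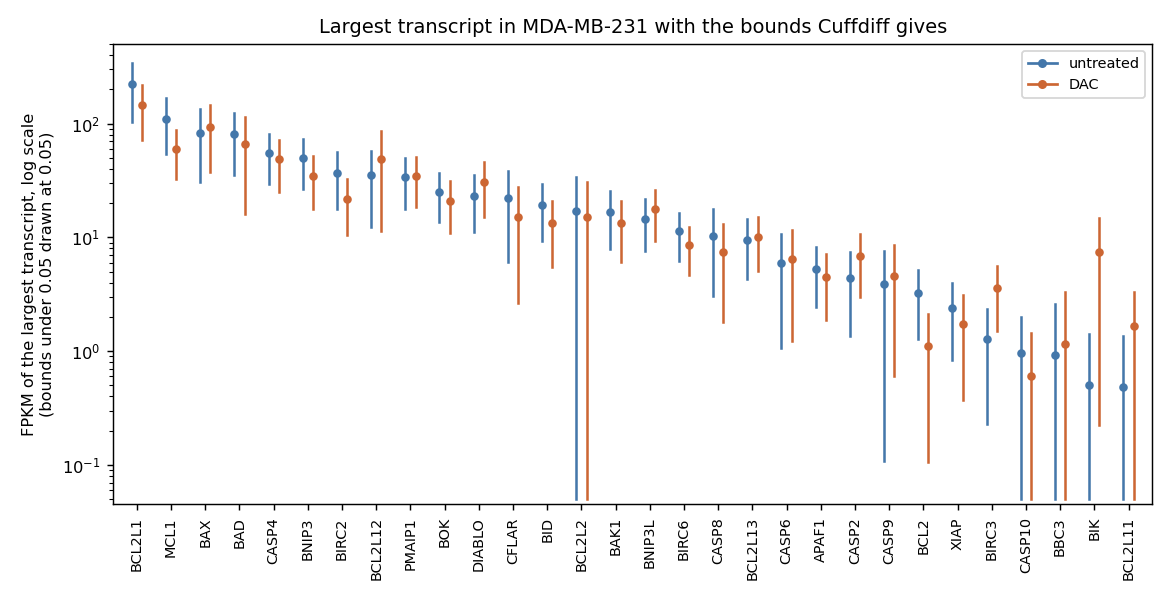
FPKM on a log scale (y axis) of the largest transcript of the 30 genes whose sum reached 1 FPKM (x axis, with CASP10 drawn although its largest transcript stayed under 1 FPKM) in the untreated and DAC MDA-MB-231 libraries, with vertical lines for the lower and upper Cuffdiff bounds. The lines overlap for each gene, including BIK (0 to 1.41 and 0.223 to 14.8).

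Sums can hide shifts between transcripts. Of 50 member transcripts at 1 FPKM in at least 1 library, 5 were higher (10.0%, against 13.9% of all transcripts) and 3 lower (6%, against 10.0% of all transcripts), and no bounds separated. Beside BIK and the main BIRC3 transcript, the higher ones were NM_138622 of BCL2L11 (0.483 and 1.66 FPKM), NM_001244567 of BID (0.00121 and 2.70 FPKM) and NM_033306 of CASP4 (0.955 and 2.18 FPKM). The lower ones were NM_182763 of MCL1, NM_000633 of BCL2 and NM_001224 of CASP2.

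The BCL2 transcript NM_000633 was at 3.24 FPKM without DAC (bounds 1.27 to 5.21) and at 1.11 FPKM with it (bounds 0.107 to 2.12), a ratio of 0.343, and its share of the gene went from 77.3% to 52.9%. For CASP2 the gene sum was near constant, at 7.32 and 7.47 FPKM, while NM_001224 was at 2.88 and 0.633 FPKM and the share of NM_032982 went from 60.6% to 91.5%. XIAP showed a similar exchange, in which NM_001204401 went from 29.6% to 52.1% of the gene. For CASP9, NM_001229 made up 50.2% and 67.6%. Cuffdiff estimates how reads common to several transcripts divide among them, so these shares carry more error than the sums.

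**Figure D4:**
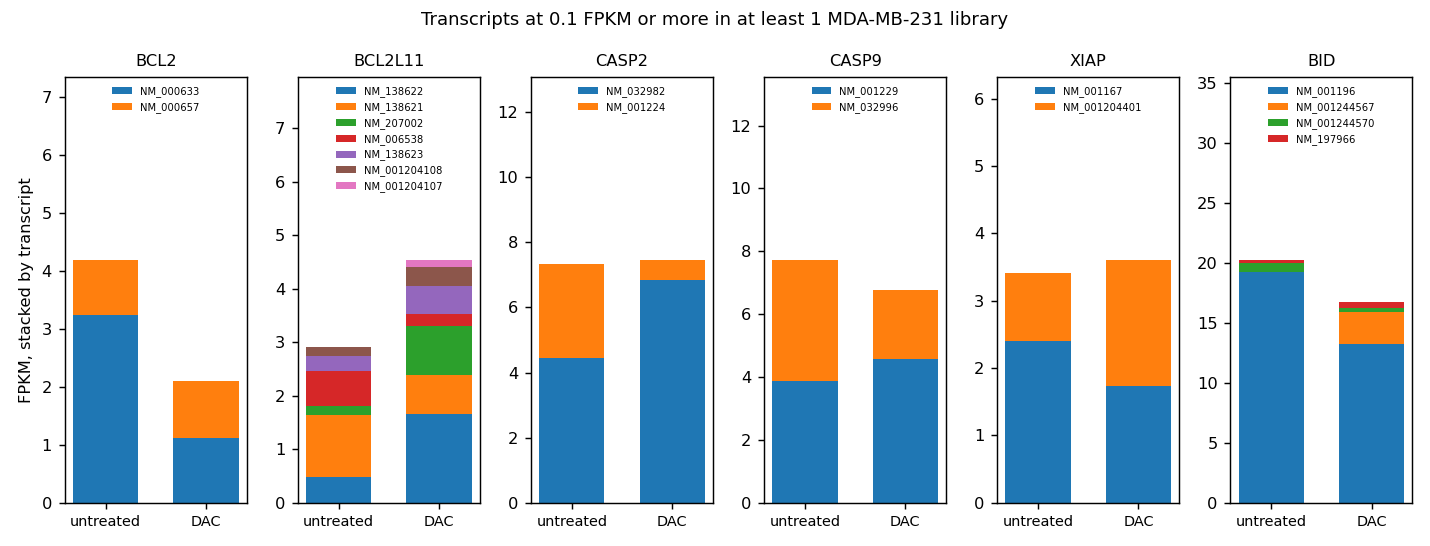
FPKM of the transcripts (stacked, y axis, each panel with its own scale) of 6 genes in the untreated and DAC MDA-MB-231 libraries, for transcripts that reached 0.1 FPKM in either library. The CASP2 columns are nearly equal in height (7.32 and 7.47 FPKM) but differ in make-up, and the BCL2 column shrinks through NM_000633.

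The HMLER values hold 1 merged figure per condition. They list only 2009 transcripts, each with a DAC value more than 2 times the untreated value, with the lowest ratio at 2.001. The lowest DAC value listed was 1.003 FPKM, so transcripts that stayed below that level are not seen either. Genes that fell or stayed level in HMLER, and the spread between its libraries, were therefore not analysed here. Of the 39 genes, 6 were listed (15.4%), where 7.85% of all symbols of MDA-MB-231 were. Of the 30 at 1 FPKM in MDA-MB-231, 5 were listed (16.7%), where 10.9% of such symbols were. The listed genes were BIK, PMAIP1, BCL2L10, BIRC3, XIAP and APAF1, so they came from both the killing and the protecting side. A gene counted as listed through any of its transcripts, whereas calls in MDA-MB-231 used the sum. XIAP and APAF1, which have several transcripts, were listed through 1 each, so a rise of their sums in HMLER is not shown. The listed transcripts of BIK, BCL2L10 and XIAP reached 1 FPKM in HMLER through the DAC condition alone. The values of the lines were normalized separately. Levels are printed for both lines, but only ratios within a line can be compared between them.

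BIK NM_001197 was at 0.197 FPKM in HMLER without and 6.97 FPKM with DAC, 35.3 times as high, where the same transcript was 14.97 times as high in MDA-MB-231. BIRC3 was listed through 2 transcripts. NM_001165 was at 1.10 and 21.8 FPKM, 19.8 times as high in HMLER against 2.78 times in MDA-MB-231, and NM_182962 was at 0.420 and 11.4 FPKM, 27.1 times as high. BIK and BIRC3 were thus the members called higher in both lines. Of all symbols at 1 FPKM in MDA-MB-231, 10.8% were higher there and 10.9% were listed for HMLER. The share of all symbols that met both was not computed, so this overlap is not read as a trait of these genes.

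PMAIP1 (chr18:57567228-57571537, plus strand, hg19) was the most abundant listed member, at 22.04 and 76.2 FPKM in HMLER, 3.46 times as high. In MDA-MB-231 its level was 33.7 FPKM (bounds 17.6 to 49.7) and 34.9 FPKM (bounds 18.5 to 51.2), a ratio of 1.04. BCL2L10 (chr15:52401460-52404972, minus strand, hg19), which encodes an anti-apoptotic protein best known from the oocyte, was at 0.2503 and 1.88 FPKM, 7.53 times as high. In MDA-MB-231 it was 12.1 times as high but stood for about 1 and 12 fragments, under 1 FPKM in both libraries.

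XIAP NM_001204401 (gene at chrX:122993562-123047822, plus strand, hg19) was at 0.392 and 1.13 FPKM in HMLER, 2.89 times as high, and at 1.02 and 1.88 FPKM in MDA-MB-231. APAF1 NM_181861 (gene at chr12:99039068-99129211, plus strand, hg19) was at 2.77 and 7.36 FPKM in HMLER, 2.66 times as high, and at 5.31 FPKM (bounds 2.46 to 8.16) and 4.52 FPKM (bounds 1.86 to 7.18) in MDA-MB-231. The differences between the lines were not tested.

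**Figure D5:**
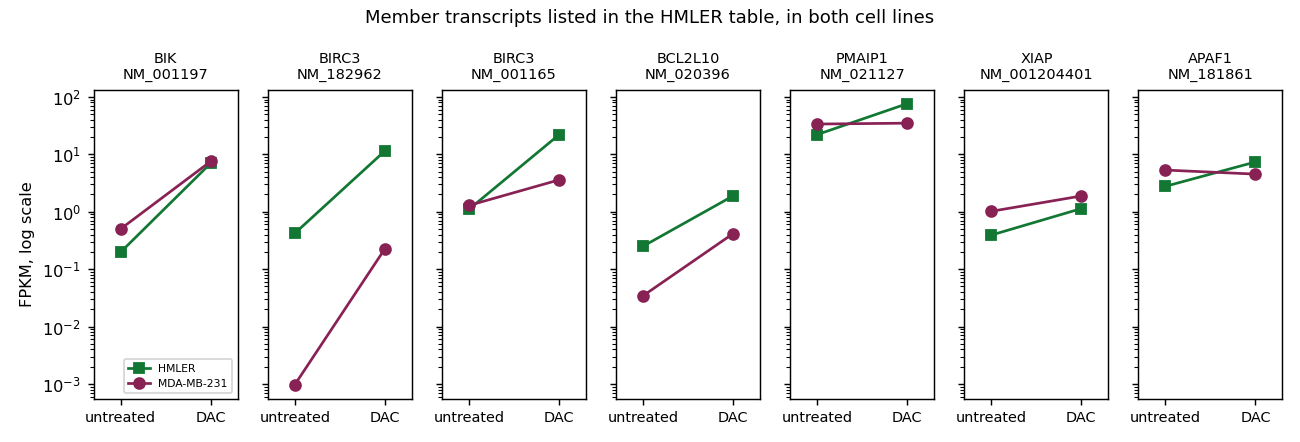
FPKM on a shared log scale (y axis) of the 7 member transcripts listed for HMLER, in untreated and DAC-treated cells (x axis) of HMLER and MDA-MB-231, with 1 value per condition and line. The lines were normalized separately, so slopes can be compared between them but heights cannot. BIK and BIRC3 NM_001165 climb in both lines, whereas PMAIP1 and APAF1 climb in HMLER (to 76.2 and 7.36 FPKM), and in MDA-MB-231 PMAIP1 is at 33.7 and 34.9 FPKM and APAF1 NM_181861 at 5.31 and 4.52 FPKM.

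The 9 genes under 1 FPKM in both MDA-MB-231 libraries were BCL2A1, BCL2L10, BMF, HRK, BCL2L14, BIRC7, CASP1, CASP5 and CASP14. Of the 8 above 0 in at least 1 library, 7 had the higher value after DAC (87.5%), beside 81.3% of all symbols at such levels, and CASP1 had the lower value. None passed 0.512 FPKM, the DAC value of BMF.

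RefSeq promoters (250 bases before to 50 after the start, GRCh38.p14) were matched for 32 of the 39 genes. BIK, BCL2L10, BCL2L2, MCL1, BNIP3L, CASP1 and CASP10 were not matched. The dinucleotide CG, which reads the same on both strands, was counted in these 300 bases. The 25 matched members at 1 FPKM or more held a median of 28, and all such symbols 27. The 7 matched members under 1 FPKM held a median of 5, beside 7 for all symbols under 1 FPKM, and 4 of the 7 held 5 or fewer (57.1%, beside 42.9% of all such symbols). CASP5 held 0, BCL2A1 2, BCL2L14 3 and CASP14 5, whereas BMF held 31 and HRK 25. Among members that were higher in MDA-MB-231 or listed for HMLER, XIAP held 10, BIRC3 15, and PMAIP1 and APAF1 42 each. These 4 all reached 1 FPKM in MDA-MB-231, and the median of all such symbols was 27. XIAP and BIRC3 thus lay below it and PMAIP1 and APAF1 above it. All promoters of the RefSeq table, silent genes included, had a median of 14.

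Genes that act beside the members showed a few changes past 2-fold. Of 16 genes of death receptors, their ligands and adaptors, 12 reached 1 FPKM, 1 was higher and 1 lower, beside 10.8% and 4.82% of all symbols. Of the 16, 4 were listed for HMLER, beside 7.85% of all symbols. The median ratio of the 12 in MDA-MB-231 was 0.841, beside 0.938 for all symbols at 1 FPKM or more. The higher gene was the death receptor gene FAS, at 2.35 and 7.70 FPKM in MDA-MB-231. Its transcript NM_000043 was listed for HMLER at 9.84 and 29.3 FPKM. The bounds of its largest transcript in MDA-MB-231 were 0 to 0.0473 and 2.13 to 13.3 and did not overlap. That transcript was at 0.000923 FPKM without DAC, where other transcripts held nearly all of the sum, and at 7.70 FPKM with it. Its bounds therefore also reflect how reads were assigned to transcripts, and do not measure the change of the sum. The lower gene was FADD, the adaptor that joins FAS to caspase-8, at 60.9 and 23.6 FPKM, with bounds of 33.6 to 88.2 and 11.6 to 35.7 that overlapped. The decoy receptor gene TNFRSF10C was listed for HMLER at 0.327 and 10.2 FPKM, and transcript NM_001042412 of CYLD, a deubiquitinase, at 0.554 and 4.18 FPKM. In MDA-MB-231 TNFRSF10C stayed under 1 FPKM, and the CYLD sum was at 5.03 and 5.66 FPKM, a ratio of 1.12.

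Of 13 inflammasome and pyroptosis genes, 7 reached 1 FPKM, 3 were higher and none was lower, beside 10.8% and 4.82% of all symbols, with a median ratio of 0.942. PYCARD, the adaptor between sensors and caspase-1, was at 0.0458 and 2.80 FPKM, NLRP3, a sensor, at 1.37 and 3.42 FPKM, and IL1B, a cytokine that caspase-1 matures, at 0.598 and 1.59 FPKM. PYCARD and IL1B passed the minimum of 1 FPKM through the DAC library alone, where they were the higher. NLRP3 and IL1B were also listed for HMLER, at 0.171 and 1.02 FPKM and at 1.80 and 13.7 FPKM, while CASP1 itself stayed under 1 FPKM in MDA-MB-231. Of 11 genes of mitochondrial release and fission, all reached 1 FPKM, none passed 2-fold and none was listed for HMLER. Among all symbols at 1 FPKM, 10.8% were higher, 4.82% lower and 10.9% listed for HMLER, so with 11 genes these counts say little. The median ratio was 0.819, beside 0.938 for all symbols at 1 FPKM or more.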

How the data were processed

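Poly-A RNA of 6 libraries was sequenced after a TruSeq preparation. Per the labels and the study's methods, the authors used TopHat2 against hg19 and then Cuffdiff, run on Galaxy, to obtain FPKM for each RefSeq transcript. Versions, use of strand and the scaling of libraries are not given in the sources used here. The deposited FPKM values were used as they stand, with the bounds deposited for MDA-MB-231. The authors' own fold changes, test statistics, p-values and q-values were not used. The columns hold no counts, so fragments were inferred from the steps of low FPKM values.

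The cell line tag of the untreated MDA-MB-231 sample carries a differing line number, and its title was followed. Transcripts were summed per symbol with Python 3.11.15, numpy 2.4.6 and pandas 2.3.3, and drawn with matplotlib 3.10.9. A gene was called when its ratio was above 2 or below 0.5 with 1 FPKM or more in at least 1 library, and log2 changes used a pseudocount of 1 and so understate low genes. No test was run, since MDA-MB-231 had 1 library per condition and the HMLER values were merged over 2.

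Members and gene lists were chosen with earlier results of these data known. Described in full were members past 2-fold, members listed for HMLER and the most abundant member of each subfamily, and listed pathway genes were named only when past 2-fold or listed for HMLER, at most 4 a list. Gene positions are from GENCODE on GRCh37, the build of hg19, and promoters from RefSeq on GRCh38.p14. Alternatives changed the filter, the pseudocount, the scaling and the choice of transcript. Depth is unknown apart from the inferred fragments, so no counting interval is given. 1 further gene list is not reported here.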

Additional observations from a re-analysis of the deposited data

Results flagged for a closer look

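APAF1, the scaffold of the apoptosome, was picked out because it was listed as higher in HMLER while its ratio in MDA-MB-231 was below 1. Its transcript NM_181861 was at 2.77 and 7.36 FPKM in untreated and DAC-treated HMLER cells, while the ratio of the gene sum in MDA-MB-231 was 0.994 and that of the same transcript 0.850, with overlapping bounds. The ratio of 0.994 is close to no change, and it turned to 1.09 after division by the median ratio and to 1.22 after division by the ratio of FPKM totals, so no opposite direction is shown. The difference between the lines was not tested.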

How the results depend on the processing

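No paired analysis was possible because MDA-MB-231 had 1 library per condition and the HMLER values were merged over the libraries, which also barred leaving out a library. The count of 2 members higher in MDA-MB-231 became 9 with no filter on low values (27.9% of all symbols were then higher), adding genes under 1 FPKM in both libraries, 1 (BIRC3) when 1 FPKM was required in both libraries (4.37%) and 1 (BIK) at a minimum of 5 FPKM (4.95%). When the largest transcript replaced the sum, 1 of 29 was lower (BCL2) instead of 0, beside 5.86% of all symbols. Under this setting 3 were higher, with BCL2L11 added, beside 11.5% of all symbols. The median log2 change of -0.15 moved to 0.0091 with no filter, to -0.019 after division by the median ratio and to 0.14 after division by the ratio of FPKM totals, the last chosen after seeing the data, so its sign depends on the scaling. The 6 members listed for HMLER became 3 (APAF1, BIRC3 and PMAIP1) when 1 FPKM was required in both conditions. The share of all symbols under that rule was not computed. For members described in full, filters cannot change a gene's own log2 change. All 26 rescaled values moved by more than 0.1, which follows mostly from the size of the divisors and is no trait of these genes. The sign of APAF1 turned under both scalings and those of BAD and CASP4 under the ratio of totals. With the largest transcript 3 of 13 values moved, and XIAP changed sign. Untreated BIK and BCL2L10 rest on about 15 and 1 fragments.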
